A study of Mus musculus with 12 samples.

Results

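The comparison set male (XY) against female (XX) somatic cells of the mouse gonad at 11.5 days post coitum (dpc), the day on which testis determination begins. Samples were chosen by their titles: 3 female and 3 male arrays at 11.5 dpc, 6 of the 12 samples in the series. The other 6, 3 of each sex at 10.5 dpc, entered to estimate the spread between arrays and, through mean intensity, to choose or filter probe sets. They also served to test whether a sex difference at 11.5 dpc differed from that of the day before. All embryos carried the pSF1-eGFP transgene, in which the promoter of Sf1 (also called Nr5a1) drives green fluorescent protein, and the cells were the green fraction from fluorescence-activated sorting. The RNA had been amplified in 2 rounds and labelled with biotin. No treatment was given, and the labels used here name neither a strain nor the number of embryos behind a sample. Nothing there says that the 3 samples of a sex came from separate animals or pools, so each p-value reflects array-to-array spread alone, and that spread may be technical. Autosomal genes alone are counted below.

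In an XY gonad the Y-linked gene Sry starts Sox9 in supporting cell precursors, which become Sertoli cells. Sox9 and the growth factor FGF9 sustain each other and hold back the WNT4 and RSPO1 signal through which the XX gonad follows the ovarian course. Sertoli cells then enclose germ cells in cords, lay down a basement membrane and send signals such as desert hedgehog to the interstitial cells, from which Leydig cells arise. SF1 is made by supporting and interstitial precursors and by cells of the adrenal anlage, so sorting on its promoter enriches several related cell types. A level in such a mixture is an average over cells, and fewer cells of a type and less RNA per cell cannot be told apart.

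Values are intensities from robust multi-array averaging (RMA) on a linear scale, and 3 values in a row are the 3 arrays of a sex in order of replicate number. Differences are log2(intensity + 1) of males minus females, with the standard error of the limma fit, n = 3 arrays per group, and p-values adjusted by the Benjamini-Hochberg method over 45037 probe sets with a threshold of 0.05. A gene is read through its brightest probe set over all 12 arrays, with probe sets of the _x_at kind used only where no other existed. The words "rose" and "fell" refer to males relative to females. A change from one mean to another runs from the female to the male mean. Of 17401 autosomal genes measured, 7088 (40.7%) differed between the sexes, with 3390 (19.5%) higher and 3698 (21.3%) lower in males. The counts in gene lists below are to be set against these shares, and a count near them says little about its group. Changes of at least 2-fold were far fewer, with 303 genes (1.74%) higher and 281 (1.61%) lower. The 3 male arrays lay wholly above or wholly below the 3 female arrays in 9192 genes (52.8%), so a gap between the groups was common and the size of a change is given beside each call. Other probe sets of a gene did not always give the same answer. Of the 303 genes at least 2-fold higher, 188 had several probe sets. In 54 of these all probe sets gave the same call, and in 14 another probe set was called lower. Of the 281 genes at least 2-fold lower, 113 had several, with the same call in all for 42 and an opposite call for 10. Averaging all probe sets of a gene left 169 genes at least 2-fold higher.

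Arrays of one sex had Pearson correlations over the probe sets from 0.9983 to 0.9988, and arrays of opposite sex from 0.9896 to 0.9899, and array medians ran from 43.4 to 43.7. Xist, the noncoding RNA that coats the inactive X chromosome, read 8113 to 8511 in female and 6.34 to 18 in male arrays. Of the Y-linked genes, Kdm5d averaged 7.07 in females and 222 in males, and Uty averaged 12.4 and 461. Eif2s3y read 60.4 to 68.4 in females at 11.5 dpc, against a mean of 9.80 in females at 10.5 dpc and of 1606 in males at 11.5 dpc. Female Eif2s3y was thus 4.03% of the male level, while female Kdm5d and Uty stayed near their 10.5 dpc female means of 6.38 and 11.2. The part of this signal in the results was not tested. Sry itself stayed near the lowest intensities, at means of 7.67 and 6.46. The ratios of 3′ to 5′ control signal, a guide to RNA quality, differed between the sexes in opposite directions. The actin ratio was 9.97 ± 0.124 (SD, n = 3) in females and 7.59 ± 0.16 in males. The Gapdh ratio was 3.88 ± 0.0593 in females and 4.19 ± 0.0060 in males. For each ratio the exact two-sided permutation test gave p = 0.1, the smallest that 3 against 3 arrays allow.

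The gonadal identity of the sort was visible in both sexes. Nr5a1, the source of the reporter's promoter, read 519, 594 and 535 in females and 721, 769 and 753 in males, and rose by 0.45 ± 0.05 (adjusted p = 5.6e-05). Wt1, a zinc finger factor needed for the gonad to form, read 1332, 1326 and 1325 in female and 1253, 1212 and 1247 in male arrays. The arrays did not overlap, yet the difference was only -0.10 ± 0.03 (adjusted p = 0.017), and without male replicate 2 the adjusted p was 0.067. Gata4, a zinc finger partner of SF1, read 389.6, 384 and 389 in females against 447, 445 and 460.5 in males and differed by 0.22 ± 0.04, a call that was lost when its probe sets were averaged (adjusted p = 0.54). Of 9 adrenocortical markers, 4 stayed below 50 on all 6 arrays. The adrenal enzyme genes Cyp21a1 and Cyp11b1 were near the lowest intensities in both sexes. Cyp21a1 averaged 7.63 and 7.66, and Cyp11b1 averaged 7.69 and 7.36. Cyp11a1, also on that list, was bright, with means of 890 in females and 334 in males. The adrenal part of the sort was not tested.

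Most testis and Sertoli cell genes were higher in males. Of 36 measured, 23 were higher and 2 lower in males, 13 of the 23 by at least 2-fold, with a median difference of 0.40 against -0.04 over all autosomal genes. The gene lists were chosen with earlier results of these data known, so list counts and medians are not separate support. List medians depended on dim members, and with probe sets averaging below 50 left out the testis median was 0.90. Cst9, a cystatin-like protease inhibitor of early Sertoli cells, read 76.8, 92.3 and 112 in females and 2481, 2579.7 and 2808 in males, a difference of 4.81 ± 0.11. Col9a3, a chain of collagen IX, read 543, 557 and 517 in female and 8833, 7389 and 8341 in male arrays, and Dhh, the hedgehog ligand of Sertoli cells, read 142, 123 and 142 in females against 1906, 1506 and 1332 in males. Dhh was called higher in 1 of its 2 probe sets, and their mean differed by 1.76 against 3.52 in the brightest. Fgf9 read 173, 197 and 206 in females and 1695, 1638 and 1602 in males. In each of these genes the highest female array lay far below the lowest male array, although the female signal was not at the floor: female Fgf9 was 11.7% of the male level, Dhh 8.58%, Col9a3 6.58% and Cst9 3.58%.

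Sox9 was less separated. The gene, which commits supporting cells to the Sertoli fate, read 314, 263 and 298 in female and 397, 438 and 388 in male arrays. The male arrays were all higher, but the rise was only 1.4-fold (0.48 ± 0.12, adjusted p = 0.011). Ptgds, a prostaglandin D synthase whose product promotes Sox9 activity in the testis, read 308, 394 and 319.6 in females against 1502, 1737 and 1708 in males, a 4.85-fold rise. Sox8, a close relative of Sox9, and Amh, the hormone that removes the Müllerian ducts, remained near the lowest intensities in both sexes. Sox8 averaged 8.62 and 7.40 and Amh averaged 3.21 and 3.18, and neither passed the test (adjusted p = 0.16 and 0.78). Dmrt1, which maintains the testis later in life, read 574, 599 and 578 in females and 630.5, 663 and 768 in males without passing (0.23 ± 0.10, adjusted p = 0.099).

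**Figure D1:**
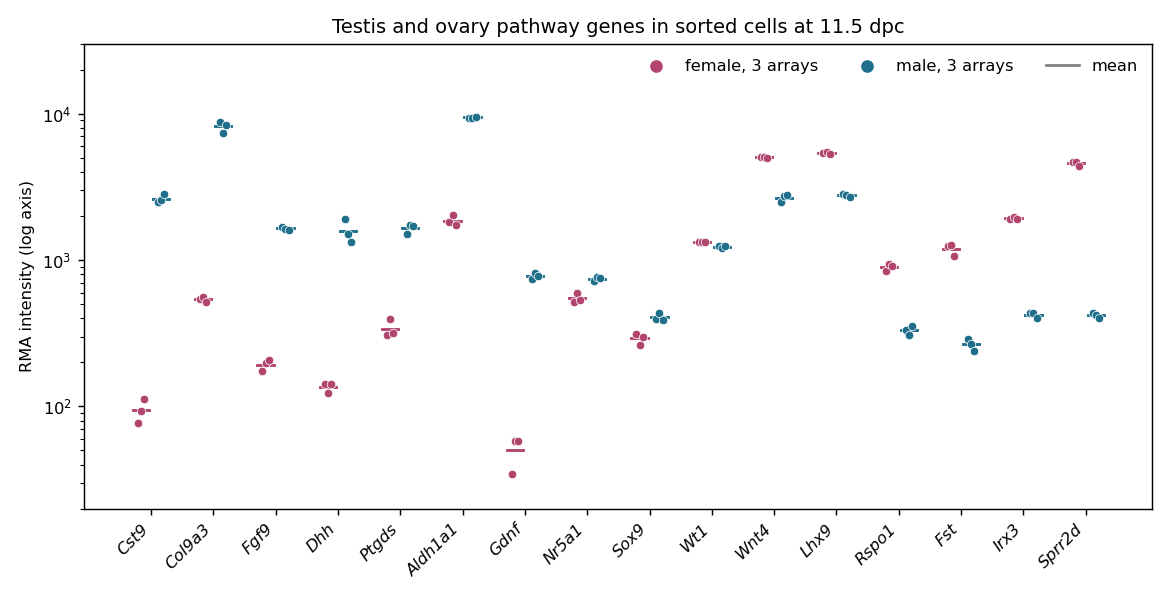
RMA intensity (log axis) of 16 testis and ovary pathway genes in each of the 3 female and 3 male arrays at 11.5 dpc, with a bar at the mean of each group. Cst9, Col9a3, Fgf9, Dhh and Gdnf stand 8.54-fold (Fgf9) to 28-fold (Cst9) higher in males, Sox9 is 1.4-fold higher, and Rspo1, Fst, Irx3 and Sprr2d are 2.7-fold (Rspo1) to 11-fold (Sprr2d) lower.

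Several of the largest rises, Aard and Tesc apart, were in genes outside the testis list. Hcrtr1, a receptor for the neuropeptide orexin, read 6.75, 7.88 and 5.22 in female and 264, 239 and 252 in male arrays (fitted difference 5.07 ± 0.10). The female arrays were at the floor, so the size of that difference, and its difference from 10.5 dpc, depend on background. Gdnf, which Sertoli cells later supply to spermatogonial stem cells, read 34.8, 57.9 and 58.4 in females against 745, 822 and 779 in males. Afp, the alpha-fetoprotein of fetal liver and yolk sac, read 174, 229.7 and 214 in females and 2896, 2629 and 2721 in males. In each gene every male array lay several-fold above every female array. Kcnk2, a potassium channel of the background-current family, rose from a mean of 53.3 to 443 (3.04 ± 0.10). Fbln2, an extracellular glycoprotein of the fibulin family, rose from a mean of 156 to 1542 (3.29 ± 0.09), called higher in 1 of its 2 probe sets. Tesc, a calcium-binding protein, rose from a mean of 336 to 2797 (3.06 ± 0.16). Aard, a small alanine- and arginine-rich protein, read 699, 746 and 588 in female and 4038, 3819.5 and 4210.3 in male arrays, and Scube2, a secreted protein that helps release hedgehog ligands, rose from a mean of 19.7 to 142 (2.79 ± 0.17). All 15 of the largest rises passed the interaction test against 10.5 dpc, with differences between ages from 2.47 ± 0.14 (Col27a1) to 5.06 ± 0.14 (Hcrtr1). Of all autosomal genes 33.9% passed it. The 15 were chosen by their 11.5 dpc difference, which is part of the interaction, so their passing is not separate support.

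The ovarian group moved the other way, but less uniformly. Of 30 genes measured, 20 were lower and 5 higher in males, with 8 at least 2-fold lower and a median of -0.32, or -0.77 with dim probe sets left out. This list, also chosen with earlier results known, holds Sprr2d and Gng13, which are among the 15 largest falls. Rspo1, the secreted activator of WNT signalling that ovarian differentiation requires, read 843, 940.3 and 905 in females against 333, 306 and 355 in males (-1.43 ± 0.06). Wnt4 read 5079, 5049 and 4970.4 in females and 2502, 2744 and 2771 in males, and so remained bright in males (-0.91 ± 0.05). Fst, the activin antagonist follistatin, read 1245, 1259 and 1070.0 in female and 290.4, 269 and 239.8 in male arrays (-2.16 ± 0.13). Irx3, an Iroquois homeodomain factor of pregranulosa cells, read 1907, 1974 and 1911 in females against 433, 436 and 401 in males (-2.19 ± 0.14). Foxl2, which keeps granulosa cells female after birth, was near the floor at means of 11.2 and 8.97, so its difference of -0.29 ± 0.05 rests on dim signal. Bmp2 differed little, with 2916, 3054 and 2804 in females and 2359, 2489.7 and 2339 in males, and Lhx9, an early LIM homeodomain factor of the gonad, read 5365, 5487 and 5286 in female and 2813, 2806 and 2687 in male arrays.

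Lgr5, a receptor for R-spondins known from the ovarian surface, went against most of the ovarian list. It read 30.5, 20.5 and 29.5 in females against 185, 217 and 185 in males, a rise of 2.84 ± 0.13, and the other of its 2 probe sets gave no call. Among the largest falls, Sprr2d, a small proline-rich protein of epithelia, read 4716, 4692 and 4429 in females and 434, 419 and 405 in males, and Ugt2b36, a glucuronosyltransferase, read 403, 369 and 399 in female and 24.9, 21.8 and 24 in male arrays. Gng13, a G protein gamma subunit, fell from a mean of 181 to 24.7 (-2.83 ± 0.22), called lower in 1 of its 2 probe sets. In all 3 genes, chosen as large falls, every male array lay below every female array, where 52.8% of all autosomal genes had a gap in either direction. Ugt2b36 and Gng13 were below the array median in males. Tph2, the brain form of the first enzyme of serotonin synthesis, fell from a mean of 162 to 22 (-2.86 ± 0.18). Cxcr4, the chemokine receptor through which germ cells find the gonad, read 91.4, 104 and 106 in females against 20.2, 16.9 and 17.4 in males.

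Markers of epithelia at the gonad's border leaned lower in males, as the ovarian genes did. Of 11 coelomic epithelium and mesothelium markers, 6 were lower and 1 higher in males, and their summed intensity ran from 12690 to 12980 in female and from 8588 to 8848 in male arrays. Podxl, the sialomucin podocalyxin, read 4995, 5043 and 5010.3 in females and 2516, 2371 and 2577 in males. Krt19 fell from a mean of 378 to 205 (-0.88 ± 0.10), and Upk3b, a uroplakin of mesothelium, fell from a mean of 507 to 337 (-0.59 ± 0.06). Lrrn4, the member called higher, rose from a mean of 59.1 to 98.9 (0.74 ± 0.14). Of 12 mesonephric duct and tubule markers, Krt19 again among them, 7 were lower and none higher. They summed to 8771 to 9165 in females and 6566 to 7134 in males. The defining nephric factors Pax8, Lhx1 and Gata3 were at the floor in both sexes, with female means of 8.79, 6.81 and 10.1. Emx2, which the list shares with the ovarian list, read 1182, 1169.9 and 1156 in female and 579.7, 619.6 and 641 in male arrays. The part of these cells in the ovarian differences was not tested.

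Transcription factors of the early bipotential gonad moved in both directions. Of 19 measured, 7 were higher and 8 lower in males, with a median of -0.08, and the count higher was 3 without female replicate 1, 4 without female replicate 3 and 4 without male replicate 3. Nr2f2 (COUP-TFII), a nuclear receptor of interstitial precursors, read 1073, 1062 and 1064 in females against 2476, 2399 and 2300.0 in males. Its 6 probe sets disagreed, 2 higher and 2 lower, and their mean gave an adjusted p of 0.36. Arid5b, a DNA-binding protein of the ARID family, fell from a mean of 3479.6 to 2077 (-0.74 ± 0.06), again with 1 of 5 probe sets called higher and 1 lower. Lhx9 and Emx2, given above, were the falls with the largest size.

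Signalling genes were examined from ligands to targets. In the FGF group of 17 ligands, receptors and co-receptors, 6 were higher and 2 lower in males, and Fgf9 was the ligand that rose at least 2-fold. Fgfr1 rose from a mean of 185 to 304 (0.71 ± 0.05) and the decoy receptor gene Fgfrl1 rose from a mean of 1536 to 2596 (0.76 ± 0.03). Fgfr2, the receptor through which FGF9 acts in XY supporting cells, read 677, 689 and 689 in females and 422, 403 and 487 in males, a difference of -0.65 ± 0.07. Of its 3 probe sets 1 was called lower and none higher, and their mean differed by -0.29. Of 16 feedback genes and targets of the ERK kinase, 6 were higher and 2 lower, or 3 higher without female replicate 1. Etv5, an ETS factor induced by FGF signals, read 163, 186 and 159 in female and 459, 530.2 and 476 in male arrays, a 2.88-fold rise. The phosphatase gene Dusp6 read 1127, 1208 and 1127 in females against 1966, 2046 and 2093 in males. Spry4, a feedback inhibitor, read 189.9, 158 and 220.4 in females and 277, 296 and 254 in males, and its call (adjusted p = 0.021) was lost without female replicate 1 or 2 or male replicate 1 or 2, with adjusted p between 0.050 and 0.076.

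WNT components split evenly: of 38 ligands, receptors and inhibitors, 10 were higher and 10 lower in males. Among all autosomal genes 19.5% were higher and 21.3% lower. Rspo1 and Wnt9a led the falls, and Wnt9a, a ligand, fell from a mean of 626 to 238 (-1.39 ± 0.08). Wif1, a secreted WNT inhibitor, was dim and read 16.7, 33 and 13.3 in female and 61.4, 36.3 and 50.6 in male arrays (1.27 ± 0.28), where female replicate 2 came close to male replicate 2. Among 13 WNT target genes, 5 were lower and 4 higher, or 3 lower without male replicate 3. Lef1 fell from a mean of 176 to 109 (-0.68 ± 0.07) and Tnfrsf19, a receptor of the TNF family, fell from a mean of 548 to 305 (-0.84 ± 0.07). Both were lower in every male array, and 52.8% of all autosomal genes had such a gap in either direction. Tcf7l2, which binds beta-catenin, rose instead, from a mean of 161 to 411 (1.36 ± 0.10), although 1 of its 4 probe sets was called lower.

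BMP targets leaned lower in males. Of 12 measured, 8 were lower and none higher, or 1 higher without female replicate 2, against 21.3% lower over all autosomal genes, and 4 were at least 2-fold lower. The list already leaned this way at 10.5 dpc, with 7 lower, 1 higher and a median of -0.43 against -0.27 at 11.5 dpc. Id1, a direct target that blocks basic helix-loop-helix factors, read 2452, 2589.9 and 2508 in females against 875, 898 and 885 in males (-1.51 ± 0.05). Smad6, a feedback inhibitor of BMP receptors, read 1818, 1843 and 1819.9 in females and 840.4, 866 and 836 in males (-1.11 ± 0.05). Msx1 and Msx2, homeodomain genes that BMPs induce, read 255, 279 and 286 in female and 114, 78.9 and 110.3 in male arrays for Msx1 and 103, 94.9 and 80.9 in females against 21.1, 37.8 and 32.2 in males for Msx2. No male array reached a female array in these 4 genes, which were named for their large changes. The groups did not overlap in 52.8% of all autosomal genes. Across 34 ligands, receptors and antagonists of the wider TGF-beta family 13 were lower and 9 higher. Inhba, the activin subunit gene, rose from a mean of 438 to 769.7 (0.81 ± 0.10), opposite in direction to its antagonist Fst. Amhr2, the receptor for AMH, fell from a mean of 2137 to 1262 (-0.76 ± 0.04), lower in males in all 3 of its probe sets, and Bmp6 was dim but higher, from a mean of 19.5 to 45.3 (1.16 ± 0.14).

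In the hedgehog pathway 5 of 13 genes, Dhh among them, were higher, 2 were lower and 6 did not pass, with a median of 0.01. Ptch1, both receptor and target of hedgehog, read 1482, 1547 and 1471 in females and 3293, 2884 and 3506 in males (1.10 ± 0.07), and Gli1, the target most used as a readout, read 32.7, 41.4 and 32.6 in female and 70.5, 101 and 79.8 in male arrays (1.20 ± 0.21). Gli2, the main activator, rose from a mean of 562 to 797 (0.50 ± 0.06), but was already higher in males at 10.5 dpc, by 0.65, and its interaction did not pass (adjusted p = 0.25). Of 22 Notch genes 15 did not pass, 5 were higher and 2 lower, where 19.5% of all autosomal genes were higher and 21.3% lower. Notch1 read 765, 781 and 809 in females against 1630.2, 1733 and 1631 in males, a 2.12-fold rise, and its ligand gene Jag1 rose from a mean of 854 to 1184 (0.47 ± 0.05). Hes1, a repressor that Notch induces, moved the other way, from a mean of 538 to 285 (-0.91 ± 0.08). Dlk1, a Notch-related surface protein of progenitors, rose from a mean of 1855 to 3055 (0.72 ± 0.03), but the mean of its 2 probe sets did not pass (adjusted p = 0.14).

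Among neurotrophic factors and receptors, 5 of 15 were higher and 4 lower. Nrtn (neurturin), a relative of Gdnf, went the opposite way to Gdnf, at 699, 1031 and 801 in females and 333, 359 and 312 in males (-1.31 ± 0.13). The GDNF receptor gene Gfra1 was dim and rose from a mean of 40.5 to 55.4 (0.46 ± 0.11), and Ngfr, the low-affinity neurotrophin receptor, rose from a mean of 278 to 518 (0.89 ± 0.08). In the group of PDGF, VEGF, KIT, HGF and endothelin genes, 10 of 26 were higher and 4 lower. Erbb3, a neuregulin receptor, read 51.5, 66.8 and 57.8 in female and 177, 195 and 181 in male arrays (1.64 ± 0.17). Hgf, whose receptor is MET, rose from a mean of 301 to 639.9 (1.08 ± 0.10), and Pdgfb, a ligand made by endothelium, rose from a mean of 49.4 to 107 (1.10 ± 0.09). Pdgfa, a Sertoli cell ligand in the testis, read 2694, 2359.7 and 2436 in females against 1743, 1776 and 1736 in males, lower in males, but its 2 probe sets carried opposite calls and their mean did not pass (adjusted p = 0.34). The endothelin receptor gene Ednrb rose from a mean of 113 to 189.6 (0.74 ± 0.04).

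Of 16 insulin and IGF genes 6 were lower and 3 higher, and 3 of the falls were among the binding proteins, with Igf1 and Igf2 and the receptor gene Igf2r as the others. Igfbp6 fell from a mean of 163 to 53.1 (-1.59 ± 0.20), Igfbp2 fell from a mean of 1206 to 589 (-1.03 ± 0.07) and Igfbp5 fell from a mean of 4962 to 3384 (-0.55 ± 0.05). The insulin receptor gene Insr read 699, 682 and 628 in females and 914, 772 and 878 in males, and its rise was lost when its 3 probe sets were averaged (adjusted p = 0.6). Axon guidance genes, which also steer migrating and vascular cells, were higher in 17 of 44 and lower in 7, with a median of 0.12. The list already leaned this way at the earlier age, with 15 higher, 8 lower and a median of 0.11. Sema5a read 124, 166 and 144 in female and 617, 624 and 648 in male arrays, a 4.36-fold rise, and the Slit receptor gene Robo2 rose from a mean of 264 to 787 (1.57 ± 0.09). Plxnc1, a semaphorin receptor, rose from a mean of 318 to 628 (0.98 ± 0.08). Sema3d was lower in intensity and rose from a mean of 54.7 to 118 (1.09 ± 0.10). Sema5a, Robo2 and Plxnc1 were already higher in males at the earlier age, by 1.27, 0.96 and 0.89, while Sema3d was lower, by -0.86. The interaction test passed for Sema5a, Robo2 and Sema3d but not for Plxnc1 (adjusted p = 0.57).

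Retinoid and prostaglandin genes showed a few strong members among many that did not pass. Aldh1a1, a retinaldehyde dehydrogenase, read 1831, 2025 and 1737 in females against 9404, 9399.9 and 9506 in males, a 5.07-fold rise. Cyp26b1, which degrades retinoic acid and so delays meiosis in the testis, read 376, 379.9 and 378 in females and 614, 613 and 648 in males (0.72 ± 0.05). Dhrs3, a retinaldehyde reductase, fell from a mean of 1162 to 852 (-0.45 ± 0.04), and the retinoic acid carrier gene Crabp2 fell from a mean of 1672 to 1288 (-0.38 ± 0.04). In all, 4 of 19 retinoid genes were higher and 3 lower. Of 19 prostaglandin genes 3 were higher and 5 lower. For both groups the shares over all autosomal genes were 19.5% higher and 21.3% lower. Beside Ptgds, the receptor gene Ptger4 rose from a mean of 686 to 1066 (0.64 ± 0.03), a call lost on averaging its 2 probe sets (adjusted p = 0.083). Pla2g4a, the phospholipase that frees arachidonic acid, fell from a mean of 2782 to 2143 (-0.38 ± 0.06).

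Extracellular matrix genes were higher in males in number, and the collagen and basement membrane lists already leaned this way at the earlier age. None of 23 interstitial collagen chains fell, 14 rose and 6 did so by at least 2-fold, with a median of 0.30. At the earlier age 9 were higher and 4 lower, with a median of 0.24. By the interaction test the difference became more positive in 9 and more negative in 6. Col27a1, a fibrillar collagen of cartilage, read 191, 185 and 166 in female and 1090.1, 1116 and 1084 in male arrays (2.60 ± 0.10), and Col2a1, the main cartilage collagen, read 109, 143 and 131 in females against 365, 456 and 441 in males (1.71 ± 0.11). Col14a1, which binds fibril surfaces, rose from a mean of 57.2 to 201 (1.8 ± 0.19). Of 23 basement membrane genes 13 were higher and 3 lower. At the earlier age 10 were higher and 3 lower, and the difference became more positive in 5 and more negative in 7. Lama4, the laminin alpha 4 chain, read 353, 409.7 and 307 in females and 1918, 1981 and 1947 in males (2.46 ± 0.15). Col18a1, the source of endostatin, read 2668, 2568 and 2415 in female and 9228, 9974 and 9756 in male arrays (1.92 ± 0.05), and Col4a2, a chain of the basement membrane network, rose from a mean of 1355 to 2782 (1.04 ± 0.05). Sparc, a collagen-binding glycoprotein, rose from a mean of 7500.3 to 14782 (0.98 ± 0.05), with 1 of its 3 probe sets called lower. Col4a2 was already higher in males at the earlier age, by 0.90, and its interaction did not pass (adjusted p = 0.18). The interaction passed for Lama4 (2.52 ± 0.21), Col18a1 (2.33 ± 0.07) and Sparc (1.08 ± 0.07).

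The enzymes that modify and cross-link collagen moved with its chains: 13 of 16 were higher and 2 lower, with a median of 0.58. Plod2, a lysyl hydroxylase, read 1278, 1189 and 1098 in females against 3216, 3224 and 3374 in males, and the related Plod1 rose from a mean of 309.7 to 802 (1.37 ± 0.09). Lox, which oxidises lysines for cross-links, read 82.3, 110.5 and 74.8 in females and 221, 237 and 287 in males, and the prolyl hydroxylase gene P3h2 rose from a mean of 143 to 300.2 (1.07 ± 0.11). Among 36 cadherins, claudins and integrins, 15 were higher and 4 lower, and the 4 with the largest changes were integrin alpha chains. Itga8 rose from a mean of 1046 to 2062 (0.98 ± 0.04) and Itga9 rose from a mean of 204 to 405 (0.98 ± 0.05), both close to 2-fold higher. Itga4 rose from a mean of 109.7 to 203 (0.89 ± 0.16) and Itga1 rose from a mean of 81.8 to 147 (0.84 ± 0.09). At the earlier age 8 genes of the list were higher and 11 lower. All 4 integrin genes were already higher then, by 0.25 (Itga8), 0.46 (Itga9), 0.80 (Itga4) and 0.79 (Itga1). The interaction test passed for Itga8 and Itga9 but not for Itga4 or Itga1 (adjusted p = 0.78 and 0.77). Proteases and inhibitors were mixed, with 7 of 29 higher and 10 lower. Adamts16, a secreted metalloprotease, rose from a mean of 175 to 989 (2.50 ± 0.18), while Klk1, the tissue kallikrein, fell from a mean of 702 to 169 (-2.05 ± 0.27) and the cystatin gene Cst12 fell from a mean of 107 to 35.2 (-1.58 ± 0.12).

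**Figure D2:**
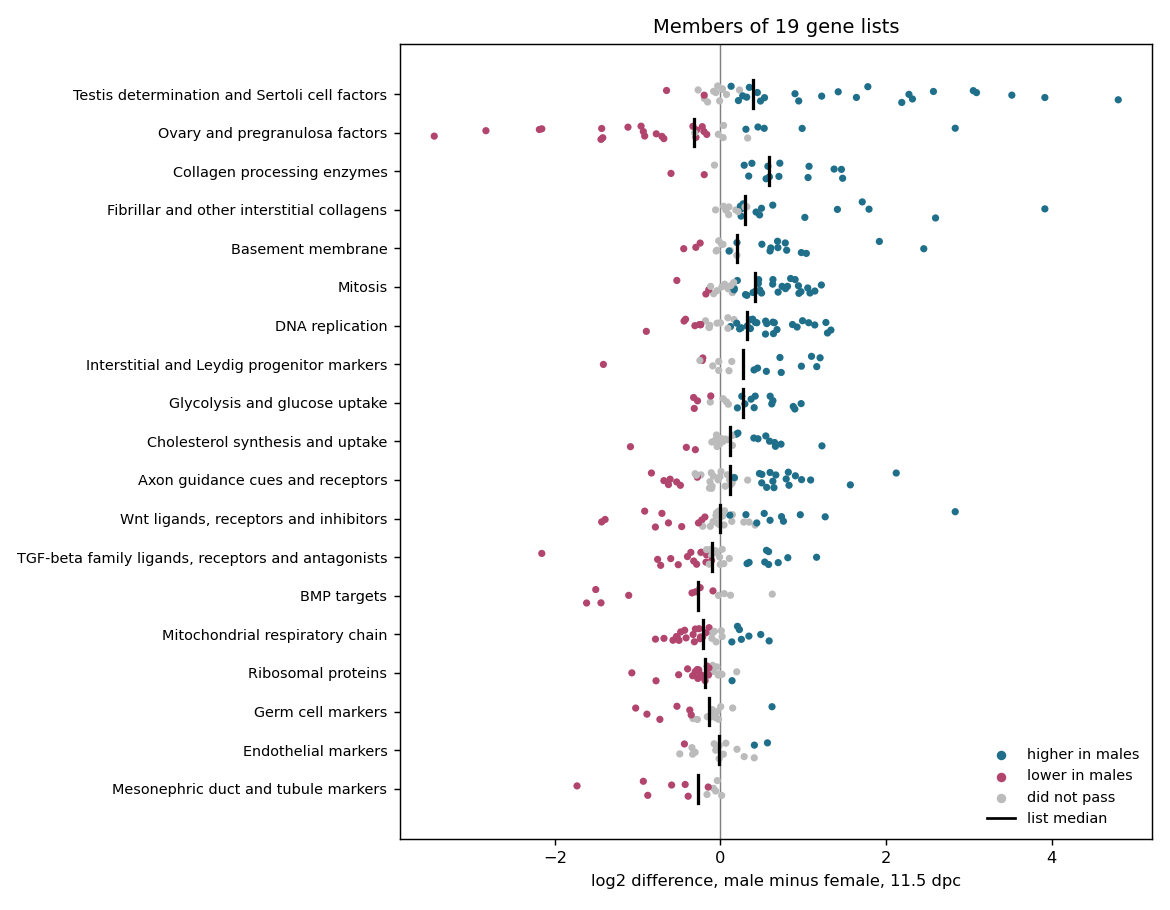
Each point is the log2 difference, males minus females at 11.5 dpc, of 1 member of 19 gene lists, coloured by its call, with a black bar at the list median. The medians of the collagen enzymes (0.58), mitosis (0.42) and testis (0.40) lists lie to the right of 0, and those of the ovary (-0.32), BMP target (-0.27) and mitochondrial (-0.22) lists to the left. Without dim probe sets the testis and ovary medians are 0.90 and -0.77.

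Cell cycle genes also stood higher in males. Of 41 DNA replication genes, 25 were higher and 7 lower, with a median of 0.33. Mcm5 and Mcm2, subunits of the replicative helicase, read 388, 398 and 391 in female and 919.6, 1033 and 1024 in male arrays for Mcm5 and 523, 555 and 525 in females against 1284, 1332 and 1316 in males for Mcm2. Pold1, the catalytic subunit of DNA polymerase delta, read 309, 328 and 277 in females and 725, 755 and 730.5 in males, and Lig1, which seals Okazaki fragments, read 1179, 1207 and 1180.5 in female and 2481, 2656 and 2733 in male arrays. All 4 were over 2-fold higher, and 3 of the 4 also passed the interaction test, from 0.42 ± 0.05 (Mcm2) to 1.04 ± 0.08 (Mcm5). Pold1 was already higher in males at 10.5 dpc, by 1.05, and its interaction did not pass (adjusted p = 0.069).

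E2F factors drive replication genes at the start of S phase, so the promoters of these 4 genes, those with the largest changes in the list, were read for E2F motifs. The windows run from 250 bases before to 50 after the gene's start in RefSeq on GRCm38.p6, 5′ to 3′ on the gene's strand, and capitals mark matches to TTTCGCGC, TTTGGCGC or TTTCCCGC on either strand, which may overlap. Mcm5 lies at chr8:75109259-75109558 on the plus strand, Mcm2 at chr6:88898731-88899030 on the minus strand, Pold1 at chr7:44548766-44549065 on the minus strand and Lig1 at chr7:13278576-13278875 on the plus strand, where Lig1 has 3 windows and the one with a match is shown.
Mcm5: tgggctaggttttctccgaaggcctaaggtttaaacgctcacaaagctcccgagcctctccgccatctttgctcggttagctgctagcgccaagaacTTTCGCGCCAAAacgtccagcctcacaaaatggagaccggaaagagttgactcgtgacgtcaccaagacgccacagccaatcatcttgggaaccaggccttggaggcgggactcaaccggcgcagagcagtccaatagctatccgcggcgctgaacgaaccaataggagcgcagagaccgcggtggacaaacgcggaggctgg
Mcm2: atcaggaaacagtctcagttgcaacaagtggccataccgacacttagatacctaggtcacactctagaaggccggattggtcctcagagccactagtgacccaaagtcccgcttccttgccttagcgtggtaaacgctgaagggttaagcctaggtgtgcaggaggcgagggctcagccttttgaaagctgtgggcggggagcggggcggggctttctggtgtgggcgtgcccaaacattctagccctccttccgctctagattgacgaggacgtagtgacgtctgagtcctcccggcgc
Pold1: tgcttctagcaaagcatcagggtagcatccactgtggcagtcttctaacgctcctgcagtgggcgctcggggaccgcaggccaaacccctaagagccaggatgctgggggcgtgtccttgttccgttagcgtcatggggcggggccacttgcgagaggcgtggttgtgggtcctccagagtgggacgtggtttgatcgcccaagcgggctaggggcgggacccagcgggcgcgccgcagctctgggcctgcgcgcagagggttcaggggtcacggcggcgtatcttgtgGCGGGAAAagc
Lig1: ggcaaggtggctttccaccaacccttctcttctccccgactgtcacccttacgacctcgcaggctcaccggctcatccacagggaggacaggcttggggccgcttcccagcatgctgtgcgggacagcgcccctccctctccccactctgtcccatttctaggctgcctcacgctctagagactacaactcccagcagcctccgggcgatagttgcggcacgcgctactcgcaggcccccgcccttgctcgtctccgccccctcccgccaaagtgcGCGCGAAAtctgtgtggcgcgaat

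Mcm5 held 2 overlapping matches, Pold1 and Lig1 held 1 each, and Mcm2 held none in this window. Over the replication list, 13 of 34 promoters found (38.2%) held one of these motifs, against 3.23% of 13832 promoters of tested autosomal genes. Among members higher in males it was 8 of 20 (40%), and among those lower it was 1 of 6 (16.7%). A match is a description of the letters and not a measured binding site.

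Mitosis genes had the same direction. Of 39 measured, 26 were higher and 3 lower in males, with a median of 0.42. Mki67, the proliferation marker Ki-67, read 3059, 3152 and 3201 in females against 6563, 7191 and 7023 in males (1.14 ± 0.04), and Bub1b, a spindle checkpoint kinase, read 466, 436 and 483 in females and 1143, 1114 and 978 in males (1.22 ± 0.07). Kif23, a kinesin of the midbody, rose from a mean of 218 to 462 (1.08 ± 0.11), called higher in 1 of its 3 probe sets. Ttk, another checkpoint kinase, rose from a mean of 133 to 276 (1.06 ± 0.08). The male arrays lay above every female array in all 4, the members with the largest changes. A gap in either direction was found in 52.8% of all autosomal genes. Of 33 mitosis promoters found, 25 (75.8%) held the CCAAT-box core ATTGG on either strand, against 41.1% of 27025 promoters in the table, and 2 held an E2F motif. Of 29 cyclin, inhibitor and E2F-RB genes, 12 were higher and 6 lower. Ccne1, the cyclin that opens S phase, read 239, 268 and 249 in female and 513, 546 and 538 in male arrays and Cdk6 rose from a mean of 599 to 981 (0.71 ± 0.07), while calls for Ccng1 and E2f6 were lost on averaging their probe sets (adjusted p = 0.81 and 0.06).

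**Figure D3:**
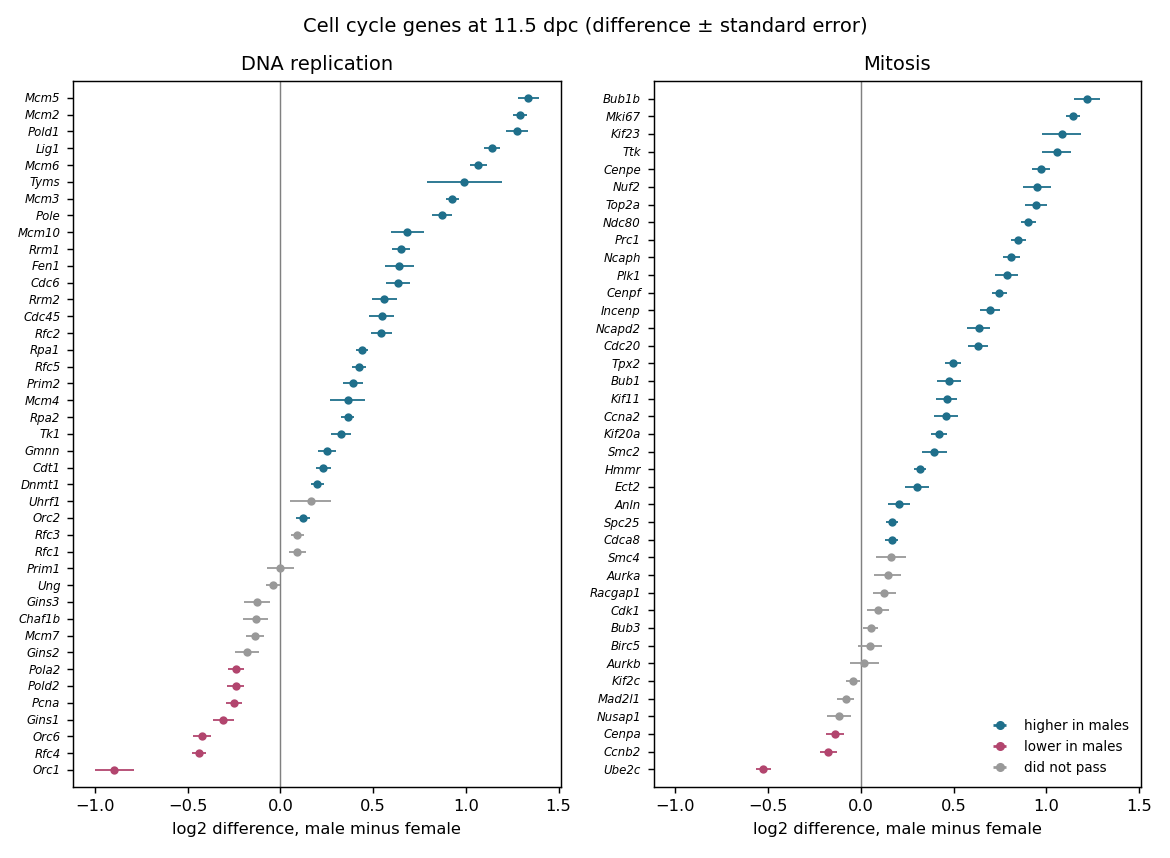
Difference between males and females at 11.5 dpc (log2, with standard error) for each of 41 DNA replication genes and 39 mitosis genes, ordered by size and coloured by call. The points reach 1.33 for Mcm5 and 1.22 for Bub1b, while 7 replication genes and 3 mitosis genes lie on the lower side.

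Metabolic groups differed in direction. Glycolysis and glucose uptake genes were higher in 12 of 20 and lower in 4, with a median of 0.28. Eno2, an enolase, rose from a mean of 422 to 787 (0.90 ± 0.04), Pfkl, a phosphofructokinase, rose from a mean of 1214 to 2232 (0.88 ± 0.05), and Pkm, the pyruvate kinase gene, rose from a mean of 3474 to 5392 (0.63 ± 0.04). Gys1, the glycogen synthase gene of muscle, rose from a mean of 345 to 679 (0.98 ± 0.08). Mitochondrial respiratory chain genes went lower, 18 of 31 against 7 higher, with a median of -0.22. Sdhc, a membrane anchor of complex II, read 2017, 2066 and 2039 in females against 1164, 1265 and 1129 in males, and Sdhd, the other anchor, fell from a mean of 1259 to 846 (-0.57 ± 0.04). Atp5b, the beta subunit of ATP synthase, was among the genes that rose, from a mean of 8576 to 12901 (0.59 ± 0.03). Ribosomal protein genes were lower in 17 of 25 and higher in 1, with a median of -0.19. Rpl37 read 3393, 3834 and 3687 in females and 1806, 1651 and 1738 in males, and Rps15 fell from a mean of 15269 to 8911 (-0.78 ± 0.04).

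Glycolysis genes were higher in males at 10.5 dpc too, with 13 of 20 higher, 2 lower and a median of 0.22, and the ribosomal and mitochondrial groups were lower. At that age 17 of 25 ribosomal and 25 of 31 mitochondrial genes were lower, while the actin 3′ to 5′ ratio was 5.32 in females and 9.90 in males, the reverse of its order at 11.5 dpc. The Gapdh ratio was lower in females at both ages, 2.70 against 4.65 at 10.5 dpc. The part of RNA quality in these groups was not tested.

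Genes of cholesterol supply were higher in 10 of 24 and lower in 3. Scarb1, the receptor that takes up lipoprotein cholesterol, read 379.5, 408 and 389 in female and 895, 947 and 917 in male arrays (1.23 ± 0.06), and Sqle, the squalene epoxidase gene, rose from a mean of 1138 to 1888 (0.73 ± 0.05). Stard4, a cholesterol carrier, rose from a mean of 1306 to 2071 (0.66 ± 0.03), while Tm7sf2, a sterol reductase, fell from a mean of 188 to 87.8 (-1.09 ± 0.07). Of 19 steroid hormone genes, 12 did not pass. Cyp11a1, which makes pregnenolone from cholesterol, read 849, 978 and 844 in females against 345, 301 and 355 in males in its brightest probe set, lower in males, but 1 of its 3 probe sets was called higher. Star, which carries cholesterol into mitochondria, read 821, 849 and 805 in females and 769, 854 and 819 in males and did not pass (-0.02 ± 0.04, adjusted p = 0.73). The mean of its probe sets was lower in males, by -0.51 (adjusted p = 2.3e-05). Fdx1, the electron carrier of CYP11A1, fell from a mean of 8057 to 4503 (-0.84 ± 0.04), and Hsd11b2, which inactivates glucocorticoids, rose from a mean of 293 to 745 (1.34 ± 0.13).

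Glutathione transferases of the mu class rose against the trend of their group. Of 35 xenobiotic and glutathione genes, 13 were lower and 6 higher in males. Gstm6 read 26.4, 28.8 and 17.8 in female and 250.4, 277 and 261 in male arrays. Gstm7 rose from a mean of 485 to 1622 (1.74 ± 0.07) and Gstm1 rose from a mean of 1820.5 to 5509.9 (1.6 ± 0.05). The male arrays lay wholly above, and 52.8% of all autosomal genes had a gap in either direction. These Gstm genes are near-identical neighbours in 1 cluster, and probes may cross-hybridise among them, so their rises may not be separate measurements. In the chaperone group 13 of 27 were higher and 4 lower. Pdia3, a disulphide isomerase of the endoplasmic reticulum, rose from a mean of 1484 to 3216 (1.12 ± 0.03), Hsp90b1 rose from a mean of 6304 to 10410.0 (0.72 ± 0.04) and the co-chaperone gene Hsph1 rose from a mean of 6839.5 to 12965 (0.92 ± 0.03). The stress factor gene Ddit3 was lower, from a mean of 2498 to 1748 (-0.52 ± 0.03).

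Other transcription and chromatin regulators moved singly. In the SOX family 4 of 16 were higher and 2 lower, and Sox6, which acts in cartilage with Sox5 and Sox9, read 129, 133 and 142 in females against 322, 324 and 312 in males with all 4 probe sets higher. Sox5 rose from a mean of 346 to 526 (0.61 ± 0.11). Of 35 forkhead, GATA, Iroquois, MSX and related homeodomain factors, 9 were lower and 5 higher, and the 4 at least 2-fold lower were Irx3, Irx5, Msx1 and Msx2. Irx5, the neighbour of Irx3, fell from a mean of 139 to 63.3 (-1.12 ± 0.10). Among 36 chromatin regulators 12 were higher and 9 lower. Ehmt2 (G9a), a histone H3 lysine methyltransferase, rose from a mean of 875 to 1929 (1.14 ± 0.05), and Kdm5b, a histone demethylase, rose from a mean of 2841 to 6208 (1.13 ± 0.03), higher in all 4 probe sets. Both were also higher at 10.5 dpc, by 1.17 and 1.54. The Kdm5b difference was smaller at 11.5 dpc (interaction -0.41 ± 0.04, adjusted p = 5.9e-05), while that of Ehmt2 did not pass the interaction test (adjusted p = 0.77). Cbx5, which encodes the heterochromatin protein HP1 alpha, rose from a mean of 904 to 1487 (0.72 ± 0.04), whereas Chd7 lost its call on averaging 2 probe sets with opposite calls (adjusted p = 0.25).

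Interstitial and Leydig progenitor markers were higher in 9 of 18 and lower in 3, with a median of 0.27 that shrank to 0.06 when probe sets were averaged. Gli1, Ptch1 and Itga8, given above, were among the higher members, and Cyp11a1 was the largest fall. The list shares Gli1 and Ptch1 with the hedgehog list and Nr2f2 with the early gonad list, so it is not a separate measurement.

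Markers of other cell types were measured beside the somatic genes. Embryonic globins fell in males: Hbb-bh1 read 5527, 5437 and 5097 in females and 1681, 1736 and 1732 in males, Hba-x fell from a mean of 2577 to 863 (-1.58 ± 0.06) and Hbb-y fell from a mean of 7342 to 3638 (-1.01 ± 0.05). The 8 erythroid markers summed to 15240 to 15570 in females and 6155 to 6532 in males, 4 lower and 1 higher, and the adult globin gene Hba-a1 was at the floor. Germ cell markers were lower in 6 of 18 and higher in 1, summing to 14530 to 15200 in females and 8026 to 8471 in males. That sum holds Ifitm1, an interferon-induced membrane protein that somatic cells also make, which fell from a mean of 11233 to 5527 (-1.02 ± 0.04). Dazl, an RNA-binding protein of germ cells, read 149, 180.3 and 179.9 in female and 87.1, 108 and 111 in male arrays, Ddx4, the germ cell helicase VASA, read 55, 60.0 and 44.8 in females against 79.9, 82.9 and 83.3 in males, and Pou5f1 and Nanog did not pass, at female means of 45.9 and 9.33. The higher call of Ddx4 was lost without female replicate 3, male replicate 2 or male replicate 3, with adjusted p between 0.051 and 0.073.

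Of 17 endothelial markers, 14 did not pass, 2 were higher and 1 lower, and the sums overlapped, at 2311 to 2430 in females and 2348 to 2439 in males. Kdr, the VEGF receptor, read 375, 385 and 309 in females and 474, 549 and 561 in males, higher in males, while Plvap, a protein of vessel fenestrae, fell from a mean of 257 to 191 (-0.43 ± 0.09). The defining genes Pecam1 and Cdh5 were at the floor, with female means of 4.70 and 7.54. Of 14 macrophage markers 3 were lower, 10 stayed below 50 on all 6 arrays, and the sums were 618.5 to 651.6 and 511.7 to 528.3. Adgre1, the F4/80 antigen, fell from a mean of 157 to 118 (-0.41 ± 0.08). Of 12 neural markers, which summed to 1438 to 1511 in females and 1243 to 1285 in males, Nefl, a neurofilament, was lower, from a mean of 532 to 266 (-1 ± 0.05), and Nefm higher by 0.18 ± 0.06. The Nefm call was lost on leaving out any single array except male replicate 1, with adjusted p from 0.075 to 0.17. Of 12 muscle markers 2 were lower and 2 higher, with sums of 5034 to 5161 and 3985 to 4244, and Tnnt1, a slow troponin, fell from a mean of 1289 to 575 (-1.16 ± 0.07). Adrenocortical markers were lower in 1 and higher in 2 of 9, with sums of 2315 to 2543 and 1965 to 2086, and immediate early genes were lower in 4 and higher in 3 of 19, with sums of 68960 to 70290 and 62780 to 65080. Beside these counts, 21.3% of all autosomal genes were lower and 19.5% higher. Klf4, a zinc finger factor, fell from a mean of 12591 to 8197 (-0.62 ± 0.04), and Myc fell from a mean of 422 to 196 (-1.10 ± 0.09). The part of these cell types in the other results was not tested.

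The sex difference was then set against that of 10.5 dpc in the same fit, through the 11.5 dpc difference minus the 10.5 dpc difference. It passed for 5902 autosomal genes (33.9%), 3279 in the direction of males at 11.5 dpc and 2623 in that of females. At 10.5 dpc itself 7127 autosomal genes (41%) differed between the sexes. The sorted cells at that age were less alike between the sexes in markers of some other cell types: 15 of 18 germ cell, 13 of 17 endothelial and 10 of 12 neural markers were lower in males and none of these higher. Mesonephric markers had 7 of 12 lower in males at both ages. The part of other cell types in the interaction was not tested.

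Among the 303 genes at least 2-fold higher in males at 11.5 dpc, 146 were called higher at 10.5 dpc as well, 33 were called lower and 124 had no call, and for 225 the difference was larger at 11.5 dpc by the interaction test. Of the 281 genes at least 2-fold lower, 146 were lower at 10.5 dpc, 35 higher and 100 without a call, and for 207 the difference had grown. Against these, 18.2% of all autosomal genes were higher and 22.7% lower in males at 10.5 dpc, and the interaction passed for 33.9%. The 2-fold genes were chosen by their 11.5 dpc difference, which is part of the interaction, and that choice favours a larger difference at 11.5 dpc. Of the 36 testis genes, 9 were higher and 7 lower at that age. Fgf9 differed by 0.05 at 10.5 dpc, where it averaged 119.8 in females and 124 in males, and its interaction was 3.05 ± 0.10. Gdnf differed by 0.01 at 10.5 dpc, Cst9 by -0.11 and Dhh by -0.21, and none of these 4 passed there. Aldh1a1 was already higher, by 1.10, and grew further (interaction 1.25 ± 0.07, adjusted p = 1.1e-06).

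Of 191 named genes, 37 (19.4%) differed in opposite directions at the 2 ages with the interaction passing, as did 1003 of all autosomal genes (5.76%), and the named genes were partly chosen by their 11.5 dpc values. Sox9 averaged 309 in females and 171 in males at 10.5 dpc, lower in males by -0.86, and was higher in males a day later (interaction 1.35 ± 0.18, adjusted p = 0.00024). Etv5 went from -1.29 to 1.53 ± 0.08 and Dusp6 from -0.63 to 0.82 ± 0.07, and over the ERK group 9 of 16 genes were lower in males at 10.5 dpc. Wnt4 moved the other way, from 0.75 to -0.91 ± 0.05 (interaction -1.66 ± 0.07), as did Lhx9 (interaction -1.15 ± 0.04), Emx2 (-1.34 ± 0.05), Podxl (-1.44 ± 0.06) and Bmp2 (-0.71 ± 0.08). Fst and Irx3 were already lower in males at 10.5 dpc, by -1.52 and -1.90, and the Irx3 difference did not pass the interaction test (adjusted p = 0.31). Gata4 went from 1.00 to 0.22 ± 0.04, a smaller difference at the later age (interaction -0.78 ± 0.06). In the cell cycle lists, 28 of 39 mitosis genes and 27 of 41 replication genes moved in the direction of males, against none and 5 in the other direction. Over all autosomal genes the shares were 18.8% and 15.1%. At 10.5 dpc mitosis genes had stood at 15 higher and 14 lower. Some markers of other cell types moved likewise: 9 of 12 neural, 12 of 18 germ cell and 11 of 17 endothelial markers went in the direction of males. Among these, 1 germ cell marker went the other way. Not all marker lists did so. Of 11 coelomic epithelium markers 2 went in the direction of males and 6 in that of females. These counts were 2 and 1 for 14 macrophage markers, and 4 and 2 for 12 mesonephric markers.

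**Figure D4:**
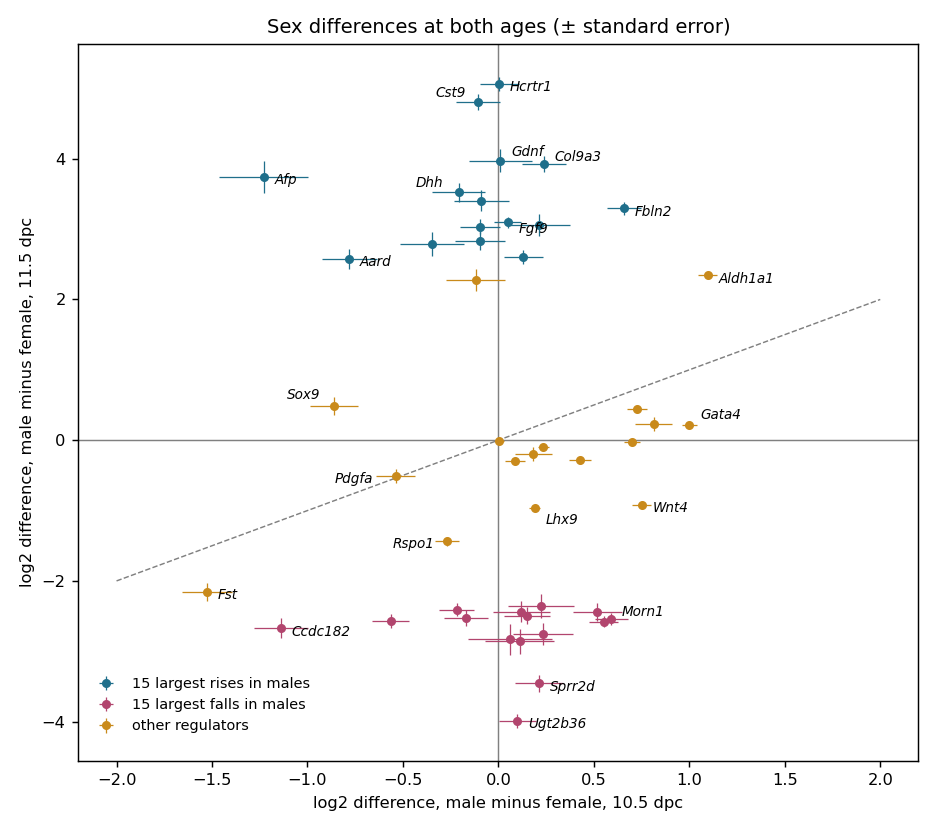
Male minus female difference (log2, with standard errors) at 10.5 dpc on the horizontal and 11.5 dpc on the vertical axis, for the 15 largest rises and falls and other regulators, with a dashed line where both are equal. Most of the large differences sit near 0 at 10.5 dpc, Afp and Aard lie below 0 there (-1.23, from dim signal, and -0.78), and Sox9 and Wnt4 change sign in opposite directions.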

How the data were processed

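The 12 arrays hybridised double-amplified, biotin-labelled RNA, per the labels' protocols. The deposited values are linear intensities, 1 per probe set, from RMA, per the submitters' processing notes; how the linear scale was reached from RMA, which ends in log2 values, is not stated in the sources used. RMA includes quantile normalization, which forces arrays to 1 distribution, so a shift shared by most genes would not be visible.

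Of 45101 probe sets, 64 control probe sets were left out and 45037 were tested. Values were transformed as log2(intensity + 1) and fitted with limma 3.58.1 in R 4.3.3 over the 4 sex-by-age groups (8 residual and 1.89 prior degrees of freedom), with Benjamini-Hochberg adjustment. The sex difference at each age and the difference between those differences (the interaction) were taken from this fit. The platform annotation gave 34945 probe sets 1 gene symbol, 932 several and 9160 none, and 34741 were matched by Entrez identifier to RefSeq genes of GRCm38.p6. This gave 18193 genes, 17401 of them autosomal, each read through its brightest probe set over the 12 arrays, the _x_at kind only where no other existed. Promoter sequences are from RefSeq. The fit was tested on simulated data. Precision is limited by the number of arrays.

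The 46 gene lists (1043 genes, 938 autosomal with a probe set) and the genes named were chosen with earlier results of these data known. Named were the 15 largest rises and 15 largest falls with a mean of at least 100 in the brighter sex, up to 4 members per list with the largest changes, and a set of regulators and markers. Not every gene chosen by this rule is described. Alternatives were log2(intensity + 16), the 6 arrays at 11.5 dpc alone, probe sets with a mean of at least 50, median centring, an intensity trend with robust prior, a replicate block, each array left out in turn, and the mean over a gene's probe sets.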

Additional observations from a re-analysis of the deposited data

Results flagged for a closer look

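In 37 of the 191 genes named the sexes differed at both ages with opposite sign and the difference between the ages passed the limma test at the threshold of 0.05 for the adjusted p. Over all autosomal genes 1003 of 17401 did so, 544 from lower to higher in males and 459 from higher to lower. Each value is the male minus female log2 difference at 11.5 dpc minus that at 10.5 dpc, with 3 arrays per group.

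The 22 named genes that moved from lower to higher in males began with Afp, at 4.97, from -1.23 at 10.5 dpc to 3.74 at 11.5 dpc. Afp was dim at 10.5 dpc, with means of 19.3 in females and 7.23 in males, so its sign there and the size of the change rest on signal near background. Pdgfb was also dim at that age, with means of 27.1 and 21.8. Aard gave 3.36, from -0.78 to 2.57, and Sox9 gave 1.35, from -0.86 to 0.48. For the others the value was Etv5 2.81, Dusp6 1.45, Notch1 1.33, Dlk1 0.99, Jag1 1.13, Gfra1 0.91, Erbb3 2.56, Pdgfb 1.40, Ednrb 2.53, Sema3d 1.95, Col18a1 2.33, Ttk 1.77, Atp5b 0.75, Gstm7 2.07, Ddx4 2.12, Kdr 1.42, Ramp2 1.70, Nefm 2.51 and Egr2 0.69.

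The 15 that moved from higher to lower included Gbp2b, an interferon-induced guanylate-binding protein, at -3.13, from 0.55 to -2.58, with means at 11.5 dpc of 124 in females and 20.01 in males. Morn1, a protein with MORN repeats, gave -3.14, from 0.59 to -2.55, and 2 of its 4 probe sets were called lower at 11.5 dpc. The transcript 4930563E18Rik gave -2.95, from 0.52 to -2.44. For the others the value was Lhx9 -1.15, Emx2 -1.34, Arid5b -1.28, Fgfr2 -1.06, Wnt9a -1.65, Igfbp5 -1.05, Pla2g4a -0.57, Podxl -1.44, Jund -0.69, Wt1 -0.34, Wnt4 -1.66 and Bmp2 -0.71.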

How the results depend on the processing

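Of 191 named genes, 172 kept direction and call under every alternative that gave them a value, and the filter on mean intensity left 177 of them. Autosomal genes called ran from 3058 to 3276 higher and from 3256 to 3652 lower when 1 array was left out, and at least 2-fold higher from 291 to 334 and lower from 265 to 290. The interaction called 3014 to 3222 genes higher and 2358 to 2565 lower in the same way. The share of called genes that were higher ran from 45.8% to 49.8% over all alternatives. Averaging probe sets moved the count at least 2-fold higher from 303 to 169, and 11 named genes lost their call: Nr2f2, Dlk1, Insr, Ptger4, Hpgd, Ccng1, E2f6, Chd7, Des, Gata4 and Pdgfa. The cause was not tested. With 1 array left out Star ran from -0.055 to 0.020, changing sign without female replicate 2 (0.00030) and without male replicate 1 without passing, and was lower with all probe sets averaged (-0.51). The early gonad list had 3 genes higher without female replicate 1 and 4 without female replicate 3 or male replicate 3, in place of 7; the ERK list had 3 higher without female replicate 1, in place of 6; and the WNT targets had 3 lower without male replicate 3, in place of 5. Of 44 list counts below 5, 22 moved by over 1.5 times under some alternative, and 33 of 46 list medians kept their sign under all. Their sizes were less stable: 27 of 46 moved by more than the spread between arrays when probe sets averaging below 50 were left out, which leaves fewer genes in a list, and 21 when probe sets were averaged. With the dim probe sets left out the median of the testis list went from 0.40 to 0.90, of the ovary list from -0.32 to -0.77, of the basement membrane list from 0.20 to 0.61, of the coelomic epithelium list from -0.13 to -0.48 and of the erythroid list from -0.41 to -1.30. Same-numbered female and male arrays at 11.5 dpc had correlations of their deviations of 0.025, 0.041 and 0.013, against -0.028 to 0.0065 for the other pairs. All are small, and they cannot show whether the numbers pair the samples. With the replicate block, 3234 autosomal genes were higher and 3555 lower, and the list of forkhead, GATA and homeodomain factors had 8 genes higher in place of 5. Dim genes near the lowest intensities, such as Sry, Amh and Sox8, give no measurable difference at this signal over background.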
